A study of Mus musculus with 44 samples.

Results

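In differentiating C2C12 cells, a mouse myoblast line, 143 array probes differed between RNA recovered with an antibody against AUF1 and RNA recovered with control IgG on days 2 and 4, and that difference was gone by day 6. Of these, 104 were higher with AUF1 and 39 were lower. Both the direction and its loss hold for quantile-normalised signals. With arrays set to a common median instead, after background correction, 4 and 21 of the 104 were above 0 on days 2 and 4. In that setting 39 of the 39 were still below 0 on day 6. The 143 probes were chosen from 25697 probes by their measured values. Signals were quantile normalised as log2 over the 29 pulldown arrays, and the mean of the AUF1 arrays minus the mean of the IgG arrays was taken for each day (the selection scale). A probe had to be detected (detection p under 0.05) on at least 20 of the 29 arrays, which 8599 candidate probes were. It also had to differ by at least 0.8 (log2) in the same direction on days 2 and 4, and by less than 0.15 in either direction on day 6. The values of days 2, 4 and 6 therefore chose the probes and are given below as a description with no test. Day 0 arrays entered only the normalisation and the detection count, and input RNA was not used.

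AUF1, the product of the gene Hnrnpd, is an RNA-binding protein known for binding AU-rich elements in mRNAs, and it can speed or slow the decay of a bound mRNA or change its translation. Myoblasts leave the cell cycle, switch on muscle genes and fuse into multinucleated myotubes when serum is reduced. The title of the study links AUF1 to this process through MEF2C, a muscle transcription factor. An immunoprecipitation with IgG shows what beads and an unspecific antibody recover, so a difference between the antibodies is read against it.

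Cell lysates were incubated with beads carrying anti-AUF1 or control IgG antibody, and the bound RNA was hybridised to Illumina bead arrays. For AUF1 there were 4 arrays of day 0, 3 of day 2, 3 of day 4 and 4 of day 6. For IgG there were 4, 3, 4 and 4 arrays of the same days, and unselected input RNA had 5 arrays for each of days 0, 3 and 6. Day 0 cells were in growth medium and the others in low-serum differentiation medium, and all came from 1 unmodified cell line. The labels do not say that arrays of a group came from separate cultures, so p-values measure the spread between these arrays, which may be technical.

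No source used here links these probes to genes, and the available gene table holds 0 of the 25697 identifiers. Members are named by Illumina identifier, muscle markers could not be looked up, and the role of no member can be stated.

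AUF1 arrays were dimmer than IgG arrays, which has to be kept in mind for every comparison below that uses pulldown arrays. The share of probes detected ran from 24.4 to 45.5% over 14 AUF1 arrays, from 25.6 to 46.8% over 15 IgG arrays and from 44.7 to 48.7% over 15 input arrays. Arrays with under 30% detected numbered 1 of 4 AUF1 arrays on day 0, 2 of 3 on day 2 and 1 of 3 on day 4, against 1 of 4 IgG arrays on day 4. Choosing the probes again without these arrays gave 80 higher probes, of which 46 were among the 104, and 40 lower probes, of which 21 were among the 39. The array of experiment 3 stood apart for some members in both day 6 pulldowns, and without these 2 arrays 93 higher probes were chosen, 81 of them among the 104, and 27 lower ones, 24 of them among the 39. The input array of experiment 4 on day 0 also stood apart for several members, as given with the input results.

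On the selection scale, the median difference of the 104 higher probes was 0.74, 0.96, 0.98 and 0.02 on days 0, 2, 4 and 6. For the 39 lower probes it was -0.72, -1.001, -0.98 and -0.03 on the same days. Over all 8599 candidates the medians were 0.03, -0.06, 0.00 and 0.02. Day 2 differences of the higher probes spanned 0.80 to 1.74 and day 4 differences 0.80 to 1.68. Those of the lower probes spanned -1.70 to -0.80 on day 2 and -1.69 to -0.81 on day 4. These medians describe the choice itself on days 2, 4 and 6. Just inside the size limit lay a higher probe at 0.803 and just outside one at 0.795, and at the day 6 limit the nearest values were -0.1497 inside and -0.1508 outside. For lower probes the nearest values were -0.803 inside and -0.7997 outside, and the nearest day 6 values were -0.1498 inside and 0.1504 outside.

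The choice was unequal between directions. The conditions for days 2 and 4 alone were met by 181 higher and 301 lower probes. A day 6 difference under 0.15 in size was found for 104 of the 181 (57.5%) and 39 of the 301 (12.96%), against 63.3% of all candidates. Of the probes outside the day 6 limit, 54 of 77 higher ones were still above 0 on day 6 and 256 of 262 lower ones were still below 0. The day 6 median of the 262 lower ones was -0.43, against medians of -1.19 and -1.04 on days 2 and 4. For the 77 higher ones it was 0.18, against 1.00 and 0.97. Differences thus also shrank by day 6 among probes outside the limit. These shares and medians come from the values that chose the probes and were not tested.

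Members were among the brighter probes. On the background-corrected scale used from here on (limma's neqc, log2), the mean level over the pulldown arrays was above the candidates' median for 92 of 104 higher and 34 of 39 lower probes. Over input arrays the same held for 83 and 30 probes. Probes outside the day 6 limit were bright as well. Over pulldown arrays 73 of 77 higher and 208 of 262 lower ones were above the candidates' median, and over input arrays 68 and 171. All 29 pulldown arrays detected 111 of the 143.

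ILMN_2987984 had the largest mean difference on days 2 and 4 among the higher probes. Its level was 9.27, 9.70, 9.61 and 9.01 on the AUF1 arrays of day 0, against 7.63, 8.27, 7.96 and 7.36 on the IgG arrays. On day 2 it was 10.64, 10.14 and 10.18 with AUF1, against 8.76, 7.79 and 8.80 with IgG. Every AUF1 array was thus above every IgG array on both days. Day 4 gave 9.79, 10.06 and 9.32 with AUF1, against 7.98, 9.28, 8.09 and 7.78 with IgG, where the highest IgG array lay just below the lowest AUF1 array. On day 6 the level was 8.08, 6.92, 8.41 and 7.02 with AUF1, against 7.44, 7.56, 8.73 and 7.03 with IgG. The groups then overlapped fully, with means of 7.61 ± 0.75 and 7.69 ± 0.73 (SD, n = 4 each).

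ILMN_2615035 came next, and its IgG arrays spread more. On day 4 its level was 9.85, 10.54 and 10.48 with AUF1, against 8.11, 6.67, 9.05 and 9.78 with IgG. On day 6 it was 8.46, 8.62, 9.87 and 9.14 with AUF1, against 8.37, 8.89, 9.37 and 8.84 with IgG. The day 4 groups were separate and the day 6 groups interleaved. The IgG array at 6.67 had 25.6% of probes detected. On day 4 the highest IgG array, at 9.78, lay just below the lowest AUF1 array, at 9.85.

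Among the lower probes, ILMN_2612484 had the largest mean difference. Its level was 10.11, 9.90 and 9.10 with AUF1 on day 2, against 11.68, 11.84 and 10.54 with IgG. On day 4 it was 9.97, 9.50 and 9.04 with AUF1, against 11.31, 11.60, 11.31 and 10.64 with IgG. Each AUF1 array lay below each IgG array on both days. On day 6 it was 10.08, 10.48, 10.46 and 10.07 with AUF1, against 10.57, 11.06, 10.14 and 9.86 with IgG, and the groups overlapped. Here both sides moved: the AUF1 mean was 10.27 on day 6 and 9.51 on day 4, and the IgG mean was 10.41 on day 6 and 11.22 on day 4.

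ILMN_2710419 was one of the brightest members. On day 4 its level was 12.30, 11.71 and 11.49 with AUF1, against 13.32, 13.38, 13.21 and 12.86 with IgG. On day 6 it was 12.86, 12.93, 12.70 and 12.75 with AUF1, against 13.15, 12.86, 12.45 and 12.89 with IgG. The groups were separate on day 4, and on day 6 its AUF1 arrays lay within the range of the IgG arrays.

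The levels with each antibody are given next, and those of days 2, 4 and 6 chose the probes. The median level of the 104 higher probes (group means per probe) was 9.65, 9.68, 9.78 and 8.57 with AUF1 on days 0, 2, 4 and 6, against 8.77, 8.53, 8.52 and 8.52 with IgG. For the 39 lower probes it was 8.42, 8.60, 8.35 and 9.68 with AUF1, against 9.29, 9.70, 9.71 and 9.78 with IgG. With AUF1, 104 of 104 higher probes were lower on day 6 than on day 4, with a median change of -1.18 (range -2.40 to -0.39), and 39 of 39 lower probes were higher, with a median change of 0.92 (0.19 to 2.56). With IgG the same median changes were -0.03 and -0.30. Array by array, the median over the higher probes lay between 9.30 and 10.05 with AUF1 on day 4, against 8.13 to 9.04 with IgG, and between 8.43 and 8.89 with AUF1 on day 6, against 8.31 to 8.97 with IgG. Over the lower probes it lay between 8.27 and 8.58 with AUF1 on day 4, against 9.70 to 10.11 with IgG, and between 9.61 and 9.86 with AUF1 on day 6, against 9.64 to 9.79 with IgG. The antibodies were thus apart on day 4 and overlapped on day 6. This separation and its loss follow from the choice and were not tested.

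The changes with each antibody depend on the scaling. When arrays were set to a common median instead of a common distribution, AUF1 levels of all tested probes were shifted by a median of 0.49 between day 4 and day 6. The higher probes then had a median AUF1 change of -0.06, with 58 lower and 46 higher on day 6, although 97 of 104 were below the shift of all probes. The lower probes had a median change of 1.77, with 39 of 39 above 0 and above the shift. The IgG changes under this scaling had medians of 0.24 for higher and -0.01 for lower probes, with a shift of 0.07.

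The differences within pairs of AUF1 and IgG arrays of 1 experiment make up the day differences, so those of days 2, 4 and 6 are a description of the choice. On day 0 the median difference of the higher probes was 1.38, 0.90, 0.70 and 0.42 in experiments 1 to 4, and on day 2 it was 1.46, 1.30 and 0.57 in experiments 1, 2 and 4. On day 4 it was 1.10, 0.98 and 0.85 in experiments 1, 3 and 4, and on day 6 it was 0.14, -0.19, -0.03 and 0.21 in experiments 1 to 4. For the lower probes day 0 gave -1.24, -0.98, -0.97 and -0.42, day 2 gave -1.37, -1.40 and -0.73, and day 4 gave -1.08, -1.20 and -1.04 in the same experiments. Their day 6 values were -0.11, -0.08, 0.15 and -0.04. On day 0, whose differences the choice did not use, the median was above 0 for the higher probes and below 0 for the lower probes in 4 of 4 pairs.

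The gap in detection between the antibodies also varied by day and by pair. The AUF1 array detected fewer probes in all 14 pairs, with a difference in percentage points between -7.37 and -3.72 on day 0. The range was -14.9 to -6.02 for day 2, -19.0 to -6.99 for day 4 and -9.25 to -0.288 for day 6. One day 6 pair, of experiment 2, had a difference of -9.25 points and an AUF1 signal of 0.504 times that of IgG. Its median differences were -0.19 for higher and -0.08 for lower probes. The day 0 pair of experiment 4, with a difference of -3.72 points and a signal ratio of 0.784, had 0.42 and -0.42. The widest gap, -19.0 points in the day 4 pair of experiment 3, came with 0.98 and -1.20. At -7.37 points, the day 0 pair of experiment 1 had 1.38 and -1.24. Beyond these values, the part of array brightness in the differences was not tested.

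Day 0, whose differences the choice did not use, asked whether the probes already differed in growing myoblasts. On the selection scale 103 of 104 higher probes were above 0 and 39 of 39 lower probes below 0, where 53.0% of candidates were above 0. A size of at least 0.8 was reached by 39 of the 104, against 1.47% of candidates, and by 16 of the 39, against 3.21%. On the background-corrected scale the median differences were 0.84 (range -0.04 to 1.59) and -0.88 (-1.57 to -0.58). All AUF1 arrays lay above all IgG arrays for 31 of 104 higher probes, where 5.59% of candidates did, and below them for 12 of 39 lower probes, where 3.99% of candidates did. The limma fit with 1 mean per group called 2 members, both lower, at adjusted p under 0.05, where it called 20 of 13812 tested probes (0.145%), 0 higher and 20 lower. At an unadjusted p under 0.05 it had 63 of the 104 and 27 of the 39, against 1712 of all tested.

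Same-numbered AUF1 and IgG arrays of day 0 deviated together, with correlations of 0.26 to 0.77, against -0.69 to 0.30 for arrays of other numbers. The fit with day and experiment as a replicate block was therefore also made. It called 110 members, 79 higher and 31 lower. Over all tested probes it called 12.8% (1764), 6.49% higher and 6.28% lower, and among candidates 10.1% and 8.36%. Median scaling shifted the day 0 differences of all tested probes by a median of -0.36. The blocked fit then called 2 higher and 38 lower members, where it called 20 of 13812 tested probes higher and 3320 lower. The higher probes' median difference was 0.23 under this scaling. Without both day 0 arrays of experiment 1 the blocked fit called 35 members, where it called 365 of 13618 tested probes. Without those of experiment 2 it called 53 members, against 565 of 13720 probes, and without those of experiment 3 it called 69, against 863 of 13699.

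The 2 members called without the block were ILMN_3161105 and ILMN_2620583. ILMN_3161105 was at 7.42, 7.48, 7.51 and 7.12 with AUF1 on day 0, against 9.20, 8.92, 9.13 and 8.12 with IgG. The difference was -1.46 ± 0.26 (log2, SE; limma adjusted p = 0.0133, and 0.000794 with the block), and all 4 AUF1 arrays lay below all 4 IgG arrays. ILMN_2620583 was at 11.22, 11.51, 11.52 and 11.10 with AUF1, against 12.77, 12.57, 12.62 and 12.01 with IgG, also without overlap. Its difference was -1.15 ± 0.21 (limma adjusted p = 0.015, and 0.00167 with the block). Without the block the call was lost in 6 of 16 alternatives for ILMN_3161105 and in 7 of 16 for ILMN_2620583, with an adjusted p of 0.259 for both under median scaling. With the block both calls were kept in 8 of 8. By day 6 both were at IgG levels: ILMN_3161105 averaged 10.23 with AUF1 and 10.17 with IgG, and ILMN_2620583 averaged 12.64 with both.

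The level of ILMN_3161105 climbed in both pulldowns while the difference closed. Its AUF1 mean was 7.38, 7.93, 8.23 and 10.23 on days 0, 2, 4 and 6, against IgG means of 8.84, 9.66, 9.71 and 10.17.

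The most positive day 0 differences were those of ILMN_2987984, described above, at 1.59 ± 0.38 (limma adjusted p = 0.076, and 0.000852 with the block), and of ILMN_1238479, at 1.38 ± 0.59 (limma adjusted p = 0.324, and 0.00687 with the block). ILMN_1238479 was at 8.32, 7.95, 8.29 and 9.02 with AUF1, against 6.34, 5.77, 7.49 and 8.45 with IgG, so the groups overlapped although AUF1 was higher in each experiment. The most negative was ILMN_3095624, at -1.57 ± 0.67 (limma adjusted p = 0.324, and 0.0228 with the block). It was at 6.90, 4.72, 6.13 and 6.96 with AUF1, where the array at 4.72 did not detect it, against 8.15, 8.13, 7.33 and 7.40 with IgG. Under median scaling the difference was 0.92 for ILMN_2987984, with the blocked call kept, and 0.56 for ILMN_1238479, with a blocked limma adjusted p of 0.229. The blocked call of ILMN_1238479 was also lost without the day 0 arrays of experiment 1 (limma adjusted p = 0.0623) or of experiment 2 (limma adjusted p = 0.0556). That of ILMN_3095624 was lost without those of experiments 1, 2 or 3 (limma adjusted p = 0.0827, 0.15 and 0.0535). The difference was -0.97 without those of experiment 2. Without the arrays with under 30% of probes detected it was -0.98, and that call was lost too (adjusted p = 0.0725).

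Set against input RNA on day 0, the higher probes were above input with AUF1 and the lower probes with IgG. With AUF1 the fit over all 44 arrays called 67 of 104 higher probes above input and 0 below, and 8 of 39 lower probes above and 3 below. Over all tested probes it called 17% above and 19.7% below, and among candidates 27.4% above. With IgG it called 28 higher probes above and 1 below, and 25 lower probes above and 1 below, where 14.9% of tested probes were above and 16.7% below and 24.6% of candidates above. Both comparisons use the same 5 input arrays and are set side by side only. The median AUF1 difference from input was 1.08 for higher and 0.18 for lower probes, and the median IgG difference was 0.33 and 0.96.

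Median scaling shifted AUF1 minus input by a median of -0.36 over all tested probes. With AUF1, 16 of 104 higher probes were then called above input and 11 of 39 lower probes below. Of 15410 tested probes, 542 were called above and 4728 below in that setting. The lower probes' median turned to -0.69. For IgG, median scaling left 6 higher and 15 lower probes called above, where 1058 of 15410 tested probes were. Input arrays carry later array numbers than all pulldown arrays, so a difference between these array series and between pulldown and input cannot be told apart.

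Among the 143 members, ILMN_2987984 was furthest above input with AUF1, by 3.52 ± 0.33 (limma adjusted p = 2.78e-10), while IgG was above input by 1.96 ± 0.33 (adjusted p = 1.97e-05). Over all candidates the highest AUF1 difference from input was 4.50. Among the members ILMN_2712584 followed at 2.93 ± 0.30 with AUF1 (adjusted p = 1.38e-09) and 2.04 ± 0.30 with IgG (adjusted p = 2.15e-06). Its level was 10.20, 11.08, 10.50 and 10.10 on the AUF1 arrays, against 8.90, 10.10, 9.87 and 9.40 on the IgG arrays. Both probes were thus above input with either antibody. Among the lower probes ILMN_2589181 and ILMN_2625451 were furthest below input with AUF1, with differences of -2.91 ± 0.75 (limma adjusted p = 0.00227) and -2.22 ± 0.63 (limma adjusted p = 0.00528), and with IgG differences of -2.10 ± 0.75 and -1.42 ± 0.63.

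On day 6, where the choice used the AUF1 minus IgG values, the levels against input are given with no test. The median for the higher probes was 0.24 above input with AUF1 and 0.19 with IgG. For the lower probes it was 1.02 above input with AUF1 and 1.10 with IgG. Candidates had medians of 0.30 and 0.27. Compared with day 0, the higher probes' AUF1 median stood near the candidates' and the lower probes' AUF1 median stood near their IgG median.

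The input course asked whether the RNAs themselves changed when the differences disappeared. Between days 3 and 6, on input, 0 of 143 members were called, where 62 of 13750 tested probes were (0.451%). At an unadjusted limma p under 0.05 there were 4 higher and 6 lower probes, against 969 of all tested. No fit took input arrays as pairs by array number, so a count of 0 does not show that these RNAs were unchanged. The input change on day 6 against day 3 had a median of 0.06 for the higher probes (range -0.49 to 1.03) and of -0.13 for the lower probes (-0.57 to 0.36). Over the last interval measured with AUF1, days 4 to 6, the changes were -1.18 and 0.92 in the median. With arrays set to a common median they were -0.06 and 1.77, where all tested probes shifted by a median of 0.49. Input was not measured on days 2 and 4 here, the intervals differ, and the arrays were normalised separately, so the 2 changes were not tested against each other.

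Early in differentiation many probes changed in input, members among them, in both directions. On day 3 against day 0 the fit called 16 higher probes up and 35 down, and 9 lower probes up and 4 down, where 17.2% of tested probes were up and 20.3% down and 19.1 and 24.3% of candidates. On day 6 against day 0 it called 19 higher probes up and 33 down, and 9 lower probes up and 7 down, where 19.5% of tested probes were up and 23% down and 20.4 and 27.8% of candidates. Of the 104 higher probes, 15 were up and 29 down at both times and 45 were called at neither. Of the 39 lower probes, 8 were up and 4 down at both times and 22 were called at neither. Among the 8573 candidates tested, 1431 were up and 1897 down at both times and 4047 were called at neither. The counts of higher probes down in input, 33.7% on day 3 and 31.7% on day 6, lay somewhat above those of the candidates, and no test was made of this.

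Input medians of the members moved little. The median level of the higher probes was 8.78, 8.67 and 8.70 on days 0, 3 and 6, and that of the lower probes was 9.53, 9.33 and 9.43. The candidates had 7.64, 7.61 and 7.59. Leaving out the input array of experiment 4 on day 0, which stood apart, gave 73 members called on day 3 and 74 on day 6, against 64 and 68 with it.

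The 2 members that rose most in input were both among the 104 higher probes. ILMN_2598916 was at 5.04, 4.42, 5.94, 5.63 and 9.94 on day 0, between 11.90 and 12.69 on the 5 arrays of day 3, and at 12.04, 11.90, 12.07, 12.31 and 11.63 on day 6. The day 0 array at 9.94 is that of experiment 4. The rise on day 6 against day 0 was 5.79 ± 0.68 (limma adjusted p = 2.64e-06), and 6.74 without that array. In the pulldowns the same probe averaged 7.47, 10.15, 10.30 and 8.96 with AUF1 on days 0, 2, 4 and 6, against 6.54, 8.97, 9.01 and 9.12 with IgG. Input thus stayed high from day 3 to day 6 while the AUF1 level was lower on day 6 than on day 4.

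ILMN_2789650 rose by 5.37 ± 0.41 (limma adjusted p = 1.68e-08) on day 6 against day 0, and by 5.81 without that array. Its input level was 4.42, 4.46, 5.05, 4.50 and 6.69 on day 0 and 10.68, 10.73, 9.83, 10.31 and 10.41 on day 6. On day 0 it was detected on 1 of 4 AUF1 and 2 of 4 IgG arrays and it averaged 4.92 with AUF1 and 4.76 with IgG. On day 4 it was at 8.64, 9.24 and 9.58 with AUF1, against 7.29, 7.69, 8.12 and 8.56 with IgG. On day 6 it was at 7.21, 7.18, 7.77 and 7.55 with AUF1, against 7.03, 7.99, 7.99 and 7.42 with IgG.

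The 2 members that fell most in input were also among the higher probes. ILMN_1212702 was at 9.74, 9.96, 10.74, 9.71 and 8.53 on day 0, at 5.68, 5.68, 5.75, 5.08 and 5.11 on day 3, and at 6.47, 6.46, 5.17, 5.65 and 5.89 on day 6. Its input fell by 3.81 ± 0.33 on day 6 against day 0 (limma adjusted p = 6.93e-08). The pulldown means were 10.08, 8.30, 8.66 and 6.72 with AUF1 on days 0, 2, 4 and 6, against 8.74, 6.35, 6.82 and 6.55 with IgG. Both pulldowns were thus lower after day 0 than on it, and the AUF1 level was above the IgG level until day 4.

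ILMN_1248830 fell in input by 2.98 ± 0.33 (limma adjusted p = 1.19e-06). In the pulldowns it averaged 12.37, 12.76, 12.03 and 9.63 with AUF1 on days 0, 2, 4 and 6, against 11.76, 11.26, 11.07 and 9.56 with IgG. Its day 6 level was 10.63, 10.82, 9.17 and 7.89 with AUF1, against 10.78, 10.84, 9.41 and 7.21 with IgG, so arrays of the same experiment lay close together while experiments differed widely. Members with the same course of the antibody difference thus included RNAs that rose and RNAs that fell in input.

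The 77 higher and 262 lower probes outside the day 6 limit resembled the members on day 0. The blocked fit called 49 of the 77 higher and 196 of the 262 lower, against 79 of 104 and 31 of 39 members. In the AUF1 pulldown 77 of the 77 were lower on day 6 than on day 4, with a median change of -0.99, against -1.18 for the 104 higher members. Of the 262, 188 were higher on day 6, with a median change of 0.38, against 0.92 for the 39 lower members, and their IgG median change was -0.51, against -0.30. The groups differ by the rule itself, so these values were not tested. Separation of the antibodies also fell over all candidates. Every AUF1 array lay above every IgG array for 9.5% of candidates on day 4 and 0.29% on day 6. Every AUF1 array lay below for 7.2 and 0.64%. On day 0, with 4 arrays per antibody as on day 6, the shares were 5.59 and 3.99%. The loss by day 6 was thus not confined to the members, and these shares were not tested either.

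The direction on days 2 and 4 depends on the scaling for the higher probes. Median scaling shifted all tested differences by medians of -0.36, -0.85, -0.73 and -0.29 on days 0, 2, 4 and 6. Under it 93, 4, 21 and 0 of the 104 higher probes were above 0, and 104, 78, 104 and 2 were above the shift of the day. Median scaling of the signal without background correction shifted the differences by -0.19, -0.48, -0.53 and -0.20, and 104, 36, 103 and 2 of the 104 were then above the shift. Relative to all tested probes, most were thus higher with AUF1 on days 0 and 4 under both, and on day 2 with background correction but not without it. Under both scalings 39 of the 39 lower probes were below 0 on each of the 4 days, and 36 with and 39 without background correction were below the shift on day 6. Their day 6 median was -0.47 under both, so the loss of their difference by day 6 also depends on the scaling.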

How the data were processed

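RNA recovered with anti-AUF1 or control IgG antibody from C2C12 cells and input RNA were measured on 44 Illumina arrays. Per the file headers, the authors deposited for each of 25697 probes a signal intensity that was not normalised and a detection p-value (GenomeStudio 1.6.0, per the submitters' processing notes). Background subtraction by the authors is not given in the sources used; the lowest deposited signal was 32.4. Input titles mention DNA but the other labels RNA, which was assumed. Column names gave each array's group and experiment number, not its sample. The number of arrays per group limits the precision.

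The member probes, and the list of comparisons, were chosen with earlier results of these data known. Members were found on log2 of the deposited signal, quantile normalised over the 29 pulldown arrays. For tests, limma 3.58.1 in R 4.3.3 corrected background by the normal-exponential model from the detection p-values, added 16, quantile normalised and took log2 (neqc), separately for the 29 pulldown, the 15 input and all 44 arrays. Quantile normalisation sets all arrays of a fit to 1 distribution, so higher and lower are relative to other probes. Testing was limited to probes detected on 3 or more arrays, which left 13812, 13750 and 15410 probes. All 143 members passed. Every fit had group means (lmFit, eBayes), Benjamini-Hochberg adjustment covered all its probes, and calls were made under an adjusted p of 0.05. The tests are those of limma across all probes; the scripts were tested on simulated data.

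Probes were named by rule: for each comparison up to 2 in each direction, by the largest mean size on days 2 and 4 or by the largest log2 difference, among called probes where there were any. On day 0, deviations of same-numbered AUF1 and IgG arrays from their group means correlated across probes at 0.26 to 0.77, each over the limit of 0.1, and the numbers were taken as pairs there. They did so too on day 2 (0.11 to 0.48) and day 6 (0.16 to 0.84), and not on day 4 (lowest -0.09), between pulldown and input (lowest -0.23) or between input days (lowest -0.32). Arrays of different numbers reached 0.30 on day 0, 0.13 on day 2 and 0.34 on day 6, above the lowest same-numbered value of each day. The limit alone thus does not separate pairs from other arrays. The blocked fit took day and experiment as pairs over all pulldown arrays, day 4 included. The block of the fits on input alone was the experiment number, which repeats within a day. Input arrays of days 3 and 6 with consecutive array numbers correlated at 0.36 to 0.51, while other combinations reached 0.48. No fit took array numbers as pairs. Alternatives were other normalisations, filters, array weights, blocks and left-out arrays. The planned gene lists and markers are not analysed here, since probes could not be paired with genes.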

Additional observations from a re-analysis of the deposited data

Results flagged for a closer look

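Of 136 group values checked for a lone array, 8 had 1 array far from the others of its group, and chance alone gives about 1 in 20. In the input RNA of day 0, the array of experiment 4 stood apart for ILMN_2598916, at 9.943 against 4.42 to 5.94 on the others, for ILMN_2789650, at 6.686 against 4.42 to 5.05, and for ILMN_2712584, at 6.834 against 8.07 to 8.32. The first pair of these probes rose in input after day 0, and the array lay on the side of the later days for both.

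On the day 6 arrays of experiment 3, the IgG array was at 5.225 for ILMN_2625451, against 8.53 to 8.90 on the other IgG arrays, and at 4.29 for ILMN_3095624, against 7.64 to 8.11, where it did not detect the probe. The AUF1 array of that experiment was low for the same probes, at 5.80 for ILMN_2625451, against 8.22 to 9.06 on the other AUF1 arrays, and at 5.24 for ILMN_3095624, against 6.89 to 8.36. That AUF1 array had a median over the 104 higher probes of 8.887, against 8.43 to 8.48 on the others. The difference between the antibodies of these probes on day 6 thus rests on arrays that moved together in this experiment.

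The IgG array of experiment 1 on day 0 was at 7.651 for ILMN_1212702, against 9.07 to 9.14 on the other IgG arrays. An input array of experiment 3 on day 6 had a median over the higher probes of 8.406, against 8.82 to 8.90 on the others. Without it 59 members were called on day 6 against day 0, 21 higher probes up and 24 down, against 68 with it, 19 up and 33 down. The causes were not tested.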

How the results depend on the processing

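The number of members moved with the limits on size and on day 6, with the background correction and with the scaling. Dropping the limit on detection left the same 104 higher and 39 lower probes. The count of 104 higher probes became 271 at a size of 0.6, 21 at 1.0 and 67 at a day 6 limit of 0.10. It was 183 on background-corrected values, 0 under median scaling and 5 under it with each day's median difference subtracted. The count of 39 lower probes became 133, 13, 24, 142, 197 and 150 in the same settings, and 59 at a day 6 limit of 0.20. The probes themselves also changed. The 183 and 5 higher probes held 85 and 2 of the 104. The 142, 197 and 150 lower probes held 29, 0 and 17 of the 39. Leaving out 1 array of days 2 to 6 gave 44 to 167 higher and 26 to 107 lower probes. These held 42 to 103 of the 104 and 14 to 39 of the 39. The higher count fell to 64 without the AUF1 array of experiment 4 on day 2, to 66 without AUF1 experiment 1 on day 6, to 44 and 53 without IgG experiments 1 and 2 on day 2, and to 53 without IgG experiment 3 on day 6, and it was 167 without IgG experiment 4 on day 2. The lower count was 59 without AUF1 experiment 1 on day 4 or IgG experiment 4 on day 2, and 107 without IgG experiment 2 on day 6. Any list of members is thus specific to its settings.

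Of the 143 members, the day 0 comparison of AUF1 with IgG called 2, and 5 without background correction, 0 under median scaling, 110 with the replicate block, 55 with array weights and 0 on the arrays of both groups alone. Leaving out 1 array gave 0 to 15: 1 without AUF1 experiment 1, 0 without AUF1 experiment 4 or IgG experiments 1, 2 or 3, and 15 without IgG experiment 4. The blocked fit, added after the data were examined, called 40 under median scaling and 2 with no replicate block. It called 35 to 112 when both day 0 arrays of 1 experiment were left out. AUF1 against input on day 0 called 78, and 27 under median scaling; IgG against input called 55, and 22 under median scaling and 83 with array weights. Left-out arrays gave 70 to 79 and 47 to 58. Input on day 3 and on day 6 against day 0 called 64 and 68 members, with 54 to 73 and 58 to 74 when 1 array was left out, and input on day 6 against day 3 called 0 in every setting run. No input array had under 30% of probes detected, so that alternative did not apply to input alone. The replicate block moved no other count by over 1.5 times. Of 1635 alternatives over 105 results on single probes, 1456 kept the direction and the side of the threshold, 77 lost the call, 60 gained one and 0 reversed a called direction. In the other 42, 5 of them under median scaling, a difference that was not called changed sign. The causes were not tested.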
